A study of Mus musculus with 4 samples.

Results

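Among single islet cells of mice labelled Sin3A mutant or WT, 289 of 6566 cell barcodes carried high levels of both insulin and somatostatin messenger RNA. They were chosen by their measured hormone shares: somatostatin (Sst) made up at least 1% of a barcode's counts, the insulin genes Ins1 and Ins2 together made up at least 1%, and glucagon (Gcg) stayed under 1%. A barcode was considered from 500 counts and 250 genes upward, if no more than 25% of its counts were mitochondrially encoded. These barcodes are called double barcodes here and are set against 211 Sst-only barcodes and 2968 insulin-only barcodes, which passed one hormone gate and no other. The double barcodes numbered 67 in the library labelled mutant A, 97 in mutant B, 122 in WT A and 3 in WT B.

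The mice were labelled by genotype only, 2 libraries as Sin3A mutant and 2 as WT, and the design text calls these 2 biological replicates. All 4 libraries are inDrop libraries of dissociated, viable primary islet cells, in which droplets tag the RNA of single cells by CEL-Seq chemistry. The sources used here do not give which part of Sin3a was changed, in which cells, at what age, in what strain, or how many mice stand behind a library. One title number occurs in a library of each genotype, called A, and another number in the remaining library of each genotype, called B, and the sources do not explain these numbers. Runs of 4 values below are in the order mutant A, mutant B, WT A, WT B.

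Pancreatic islets mix several endocrine cell types. Beta cells make insulin, which lowers blood glucose, and delta cells make somatostatin, a peptide that restrains the release of both insulin and glucagon by neighbouring cells. Mice have a pair of insulin genes, Ins1 and Ins2. Hhex, a homeobox transcription factor, maintains delta cell identity, and Pdx1, another homeobox factor, is expressed in beta cells and in many delta cells and binds TAAT-containing elements of both hormone promoters.

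The hormone genes that define the gates lie apart in the genome (GENCODE M21 on GRCm38). Sst spans chromosome 16 from 23889573 to 23890958 on the minus strand, Ins1 chromosome 19 from 52264297 to 52265476 on the plus strand, and Ins2 chromosome 7 from 142678656 to 142743381 on the minus strand, where the annotated gene includes long transcripts. Hhex spans 37434810 to 37440731 of chromosome 19, plus strand. The 250 bases before the RefSeq start of Sst (GRCm38.p6, chr16:23890845-23891094, minus strand) and of Ins1 (chr19:52264047-52264296, plus strand) are shown because these genes set the gates. Both are promoter sequence, written 5′ to 3′ on the gene's strand, and capitals mark the cyclic AMP response element TGACGTCA, which CREB binds, and the homeodomain core TAAT on either strand.
Sst promoter: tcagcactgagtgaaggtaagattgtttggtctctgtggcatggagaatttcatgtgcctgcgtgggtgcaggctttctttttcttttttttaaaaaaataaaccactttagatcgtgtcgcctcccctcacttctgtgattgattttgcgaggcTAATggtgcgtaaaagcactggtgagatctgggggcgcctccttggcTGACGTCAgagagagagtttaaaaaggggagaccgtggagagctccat
Ins1 promoter: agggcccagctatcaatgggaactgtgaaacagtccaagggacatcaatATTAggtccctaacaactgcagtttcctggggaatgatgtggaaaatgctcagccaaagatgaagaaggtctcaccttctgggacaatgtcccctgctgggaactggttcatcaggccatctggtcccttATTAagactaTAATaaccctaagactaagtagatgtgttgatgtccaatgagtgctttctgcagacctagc
The Sst window held 1 TGACGTCA and 1 TAAT, and the Ins1 window held 0 TGACGTCA and 3 TAAT, with no overlap between the motifs. Of 32851 RefSeq promoter windows of the same length, 1.55% held TGACGTCA and 54.9% held TAAT on either strand. A match describes letters only. The windows follow the RefSeq start, and the GENCODE span of Sst given above reaches into its window, from 23890845 to 23890958. Both marked Sst motifs lie in that stretch. The Ins2 window is not used here.

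The libraries held 1323, 2445, 1302 and 1878 barcodes with 9282495, 12236110, 12835199 and 10350699 counts, of which 1147, 2399, 1220 and 1800 barcodes passed the filters. The median depth of a passing barcode was 7611, 4442, 9996.5 and 5306.5 counts. Pairs of libraries shared between 12 and 42 barcode names, and 0 names were double in both libraries of a pair. Sin3a, which holds together a corepressor complex with histone deacetylases, stood at 40.8 and 24.9 CPM (counts scaled to a total of 1000000) in double barcodes of mutant A and B, from 26 and 18 counts. It stood at 20.1 CPM in WT A, from 29 counts, and had 0 counts in WT B, where 3 counts would already be 1700 CPM. Insulin-only barcodes held 51.3 and 18.2 CPM in mutant A and B and at 25.3 and 40.9 CPM in WT A and B, so that the libraries labelled mutant were higher within A and lower within B. The counted tags are 3′ tags, and one outside the changed part checks nothing, so genotypes below are those of the labels.

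The library labelled WT B stood apart from the start. Its 3 double barcodes held 652, 557 and 556 counts, 1765 in all, against 637032, 721893 and 1440320 counts in the double barcodes of mutant A, mutant B and WT A. They held 0 counts of the 9 genes other than Sst in the delta list, and hemoglobin Hbb-bs gave 30 of their 1765 counts. Apart from Sst itself these 3 barcodes therefore showed no delta marker of the list, and gene levels below are given for the 3 libraries with at least 20 double barcodes, since 3 counts are already 1700 CPM in WT B.

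**Figure D1:**
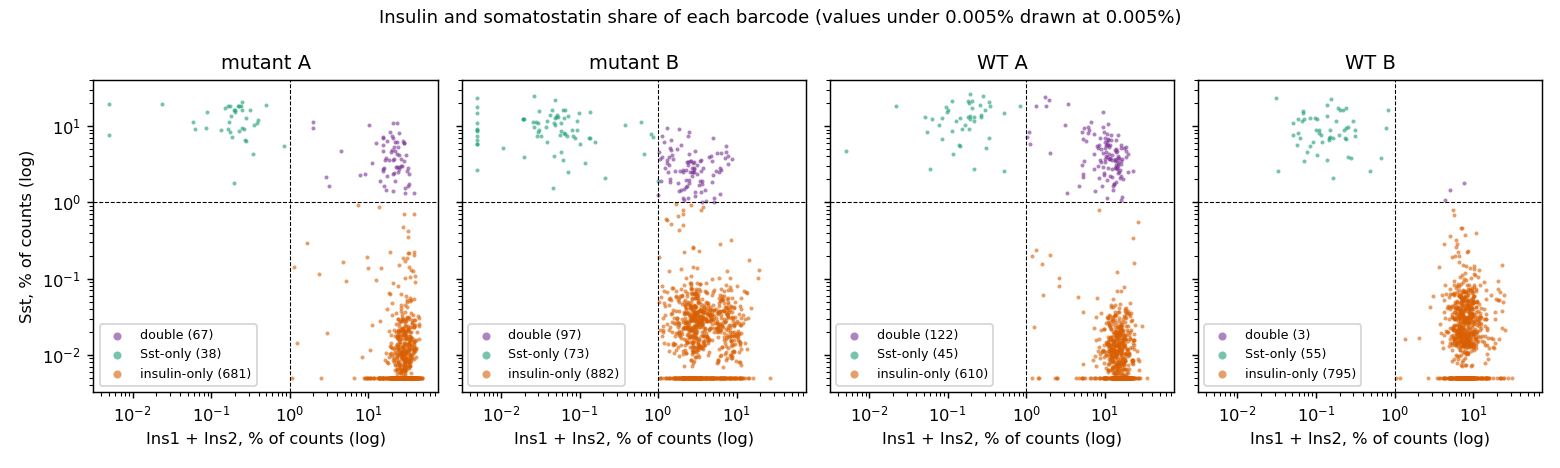
Share of counts from Ins1 and Ins2 (horizontal, log scale) and from Sst (vertical, log scale) in each barcode of the double, Sst-only and insulin-only gates, one panel per library, with the 1% gates dashed. Double barcodes sit as a group at the upper right in mutant A, mutant B and WT A, 67, 97 and 122 of them, and WT B holds 3 near the Sst gate.

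Double barcodes made up 63.8% of the Sst-rich barcodes (Gcg under 1%) in mutant A (67 of 105, exact 95% binomial interval 53.85% to 72.96%) and 57.1% in mutant B (97 of 170, 49.26% to 64.61%). They made up 73.1% in WT A (122 of 167, 65.65% to 79.62%) and 5.17% in WT B (3 of 58, 1.08% to 14.4%). At these gates, among barcodes with Gcg under 1%, most of those rich in somatostatin were also rich in insulin in 3 libraries, and few were in the fourth. The level of the gates moved the shares: with both gates at 2% they were 58.1%, 32.1%, 66.2% and 0%, and with both at 5% they were 33.3%, 1.27%, 43.5% and 0%. These intervals, like all below, cover counting error only. Averaged by genotype label the share was 60.4% ± 4.77 in mutant and 39.1% ± 48.0 in WT libraries (SD, n = 2 each), a difference of 21.3 percentage points that lay within the spread of the WT libraries (exact permutation test over libraries, two-sided, p = 1, smallest possible p = 0.333). Mutant minus WT was -9.24 points within A and 51.9 points within B. Without WT B the difference was -12.6 points.

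The gap of WT B was also present among deep barcodes. Among Sst-rich barcodes of at least 2000 counts, 55 of 85 (64.7%) were double in mutant A and 87 of 150 (58.0%) in mutant B. In WT A 96 of 137 (70.1%) were double, and in WT B 0 of 48, with an exact upper bound of 7.40%. As a part of all insulin-rich barcodes, double barcodes came to 8.96%, 9.91%, 16.7% and 0.376%, and as a part of all passing barcodes to 5.84%, 4.04%, 10% and 0.167%. Whether such barcodes were rarer in the islets or were captured or kept less often cannot be told apart.

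Other hormone pairs did not follow the same order of libraries. Insulin-rich barcodes among the glucagon-rich ones (Sst under 1%) came to 35.4% in mutant A and 1.04% in mutant B, against 18.4% in WT A and 3.62% in WT B, from 70, 4, 29 and 20 barcodes. Glucagon-rich barcodes among the Sst-rich ones (insulin under 1%) came to 24.0%, 30.5%, 15.1% and 27.6%, from 12, 32, 8 and 21 barcodes, so WT B was not low for that pair. All 3 hormones passed 1% in 5, 0, 8 and 1 barcodes. Barcodes with insulin and glucagon held a median of 2899.5, 1283.5, 9082 and 740 counts, against 9761, 7427, 12677.5 and 557 in double barcodes.

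Hormone RNA in cells that make none gives the background of the gates. Among barcodes chosen by endothelial genes alone (at least 0.5% of counts), insulin reached 1% in 4 of 48 and 0 of 142 in mutant A and B, and in 2 of 62 and 2 of 77 in WT A and B. The exact upper bound for 0 of 142 is 2.56%. Their median insulin share was 0.218%, 0.0322%, 0.173% and 0.101%, at median depths of 5130.5, 3461, 4030 and 5657 counts. Sst reached 1% in 2, 0, 1 and 0 of the same barcodes. Among barcodes chosen by mesenchymal genes (at least 2% of counts), insulin reached 1% in 1 of 26, 2 of 360, 7 of 95 (7.37%) and 0 of 133, and Sst in 0, 1, 0 and 0. Sst-only barcodes held a median insulin share of 0.202%, 0.0483%, 0.182% and 0.140%, close in size to the endothelial values and below the gate.

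Within the double barcodes, insulin and somatostatin were both lower than in the single gates. Their median insulin share was 20.8%, 2.57%, 11.01% and 5.04% of counts, against 28.7%, 3.33%, 14.7% and 7.89% in insulin-only barcodes. Their median Sst share was 3.58%, 2.79%, 4.01% and 1.44%, against 11.6%, 8.89%, 13.1% and 8.76% in Sst-only barcodes. These shares chose the members and are a description. Relative to the insulin-only median of the same library, the median double barcode held 72.4%, 77.2%, 75.0% and 63.8% of the insulin, and relative to the Sst-only median 30.9%, 31.4%, 30.7% and 16.4% of the somatostatin. The insulin level of the libraries differed several-fold, while these relative levels lay close together in mutant A, mutant B and WT A.

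Insulin outweighed somatostatin in most members of A and in about as many as not in mutant B, in 63 of 67, 51 of 97, 101 of 122 and 3 of 3 barcodes. Across members of a library, insulin and Sst shares had a Spearman correlation of -0.180 in mutant A, -0.124 in mutant B and -0.378 in WT A, over 67, 97 and 122 barcodes that share a library and its depth. The 2 shares are parts of one total. Ins1 gave 60.9%, 44.6%, 54.2% and 48.0% of the insulin counts of double barcodes, against 59.8%, 42.4%, 53.7% and 46.2% in insulin-only barcodes, so the balance of the insulin genes followed the library.

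Near the gates barcodes were few in A and more in mutant B. Of the Sst-rich barcodes, 1, 5, 3 and 3 held between 0.5% and 1% insulin, just outside, and 2, 29, 8 and 0 held between 1% and 2%, just inside. The values nearest the insulin gate were 1.95% inside and 0.831% outside in mutant A, 1.00% and 0.989% in mutant B, 1.03% and 0.842% in WT A, and 4.45% and 0.814% in WT B. Of the insulin-rich barcodes, 4, 11, 2 and 2 held between 0.5% and 1% Sst and 11, 29, 13 and 3 held between 1% and 2%. In mutant B, whose insulin-only barcodes held the least insulin of the 4 libraries, the gate therefore cut through the insulin range.

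Double barcodes carried more RNA counts than Sst-only barcodes of the same library in 3 of 4 libraries. The median double barcode held 9761 counts in mutant A, 7427 in mutant B and 12677.5 in WT A, against 5426.5, 3615 and 6203 in Sst-only barcodes, ratios of 1.799, 2.05 and 2.04. In WT B it held 557, against 4695. Insulin-only barcodes held a median of 9342, 6398, 12966.5 and 6126 counts, so double barcodes were at 1.05, 1.16, 0.978 and 0.0909 times the insulin-only median. The median double barcode held 66.1%, 74.2%, 66.1% and 5.15% of the sum of the Sst-only and insulin-only medians.

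Over the 4 libraries the mean log2 ratio of median counts was -0.04 ± 2.03 to Sst-only and -0.80 ± 1.77 to insulin-only barcodes (SD, n = 4), neither beyond the spread between libraries (exact sign-flip permutation test, two-sided, p = 1 and p = 0.875, smallest possible p = 0.125). Without WT B the mean log2 ratio to Sst-only was 0.97 ± 0.11, higher in 3 of 3 libraries, and to insulin-only 0.08 ± 0.12, higher in 2 of 3 (SD, n = 3, p = 0.25 and p = 0.5 by the same exact permutation test, smallest possible p = 0.25).

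**Figure D2:**
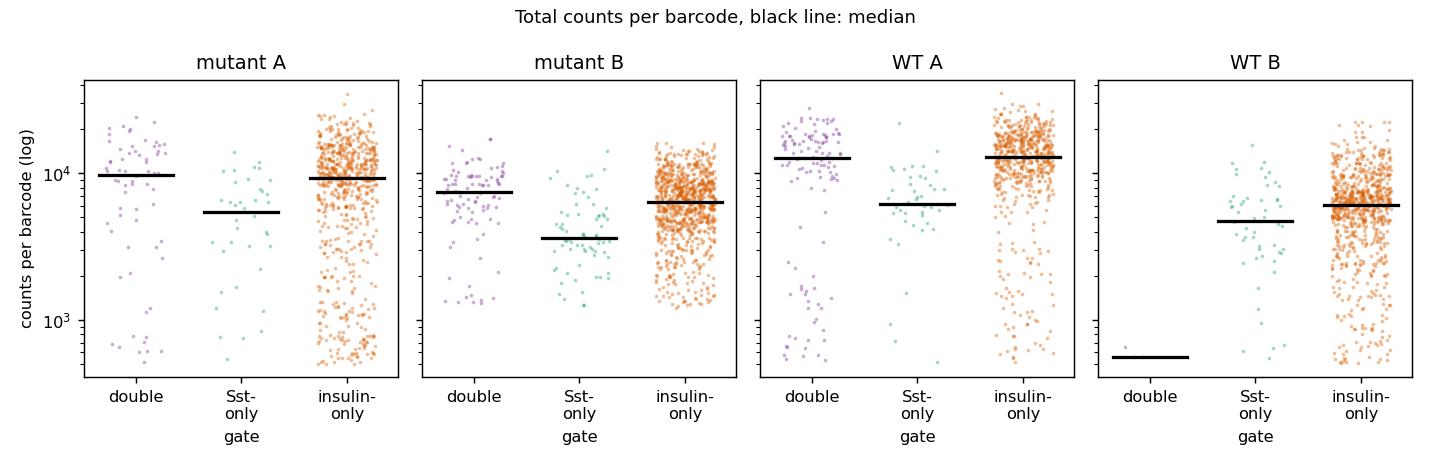
Total counts per barcode (vertical, log scale) in the double, Sst-only and insulin-only gates of each library, with 1 point per barcode and the median as a black line. Medians of double barcodes lie at 9761, 7427 and 12677.5 counts in mutant A, mutant B and WT A, above the Sst-only medians and near the insulin-only ones, and at 557 counts in WT B.

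The spread of depth within the double gate was wide. In mutant A members ran from 518 to 24277 counts and in WT A from 536 to 28042, with 9 and 14 members under 1000 counts, while mutant B ran from 1299 to 17201 with 0 under 1000. The raw number of genes per barcode followed the counts, at 1.47, 1.71 and 1.61 times the Sst-only median and 1.08, 1.14 and 1.00 times the insulin-only median in mutant A, mutant B and WT A, and at 0.179 and 0.150 times in WT B.

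At an equal depth most of that difference was gone. After each barcode was thinned to 2000 counts, which left 55, 87, 96 and 0 double barcodes, the median double barcode showed 1024, 1197 and 1142.5 genes. Sst-only barcodes showed 1079.5, 1146 and 1108 genes and insulin-only barcodes 982, 1177 and 1132 in the same libraries. Double minus Sst-only averaged 10 ± 57.3 genes (SD, n = 3), higher in 2 of 3 libraries and within the spread (exact sign-flip permutation test, two-sided, p = 1). Double minus insulin-only averaged 24.2 ± 16.2 genes (SD, n = 3), higher in 3 of 3 libraries, with p = 0.25 by the same exact permutation test, the smallest p that 3 libraries allow.

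Delta cell genes other than Sst were present in double barcodes at reduced levels. The 9 genes of the delta list summed to 1846 CPM in mutant A, 3405 in mutant B and 1572 in WT A, against 5416, 7912 and 4265 CPM in Sst-only barcodes and 220, 495 and 253 CPM in insulin-only barcodes. That is 34.1%, 43.0% and 36.8% of the Sst-only level, on average 38.0% ± 4.58 (SD, n = 3). WT B had 0 counts of these genes in its double barcodes. In mutant A, mutant B and WT A, Rbp4 alone, given below, made up most of the double and Sst-only sums. The level of the list is therefore largely that of Rbp4. The list was chosen with earlier results known, and since the gates act on Sst, levels of other delta genes are given with no test.

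Hhex, the delta cell homeobox factor, stood at 142.8 CPM in mutant A and 506 CPM in mutant B in double barcodes, and at 185 CPM in WT A. Sst-only barcodes held 369, 1047 and 605 CPM of it in these libraries and 963 CPM in WT B, and insulin-only barcodes between 1.01 and 6.79 CPM in all 4. Double barcodes thus stood between the single gates and far above the insulin-only level in each of the 3 libraries.

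Rbp4, a retinol-binding protein abundant in delta cells, was at 1518, 2669 and 1248 CPM in double barcodes, against 4635, 6199 and 3465 CPM in Sst-only barcodes and 107, 438 and 189.9 CPM in insulin-only barcodes. Ptprz1, a receptor tyrosine phosphatase, was at 53.4, 187 and 75.7 CPM, against 237, 604 and 131 CPM in Sst-only barcodes. Both followed the order seen for Hhex. Ghsr, the ghrelin receptor, did not separate the gates in these data, at 81.6, 9.70 and 31.9 CPM in double, 118, 18.7 and 25.6 CPM in Sst-only and 83.8, 8.83 and 32.4 CPM in insulin-only barcodes. The other 5 members, Crhr2, Cckbr, Casr, Prg4 and Sstr1, reached at most 26.3 CPM in double barcodes of these libraries.

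Beta cell genes other than insulin were also present, at a larger part of their own level. The 11 genes of the beta list summed to 4199, 4721 and 7124 CPM in double barcodes, against 657, 981 and 1015 CPM in Sst-only and 6489, 6600 and 10489 CPM in insulin-only barcodes. Double barcodes held 64.7%, 71.5% and 67.9% of the insulin-only level, on average 68.1% ± 3.41 (SD, n = 3). In WT B the sum of 9065 CPM rests on 1765 counts in all.

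Ucn3, a peptide of mature beta cells that acts on delta cells, was at 265, 169 and 147 CPM in double barcodes, against 0, 0 and 3.20 CPM in Sst-only and 438, 211 and 177 CPM in insulin-only barcodes. Slc2a2, the glucose transporter GLUT2, was at 358, 499 and 467 CPM, against 14.2, 74.8 and 12.8 CPM in Sst-only and 577, 727 and 662 CPM in insulin-only barcodes. For both genes the Sst-only level was the lowest of the 3 gates in each library, and the double level stood below the insulin-only one.

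G6pc2, a glucose-6-phosphatase of beta cells, was at 444, 359 and 744 CPM in double and 879, 625 and 1272 CPM in insulin-only barcodes. Nkx6-1, a beta cell transcription factor, was at 411, 363 and 580 CPM in double and 549, 436 and 711 CPM in insulin-only barcodes. Ero1lb, an oxidoreductase that serves insulin folding, was at 347, 521 and 492 CPM against 528, 764 and 708 CPM. All 3 were lower in double than in insulin-only barcodes of each library. Mafa, a beta cell transcription factor, had 0 counts in double barcodes and at most 0.969 CPM in insulin-only ones, so it could not be compared.

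Among genes that beta and delta cells share, Iapp, the peptide amylin, was at 19740, 24070 and 20346 CPM in double barcodes, against 12662, 17998 and 13516 CPM in Sst-only and 27425, 30585 and 24895 CPM in insulin-only barcodes. Pdx1 was at 163, 76.2 and 165 CPM, against 118, 37.4 and 125 CPM in Sst-only and 203, 68.7 and 189 CPM in insulin-only barcodes. Pdx1 of double barcodes lay between the single gates in mutant A and WT A and above both in mutant B. Slc30a8, a zinc transporter of insulin granules, was at 166, 274 and 239.5 CPM in double, 4.73, 65.4 and 12.8 CPM in Sst-only and 271, 440 and 387 CPM in insulin-only barcodes. In these data it was not evenly shared, since insulin-only barcodes held at least 6.73 times the Sst-only level in all 4 libraries.

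**Figure D3:**
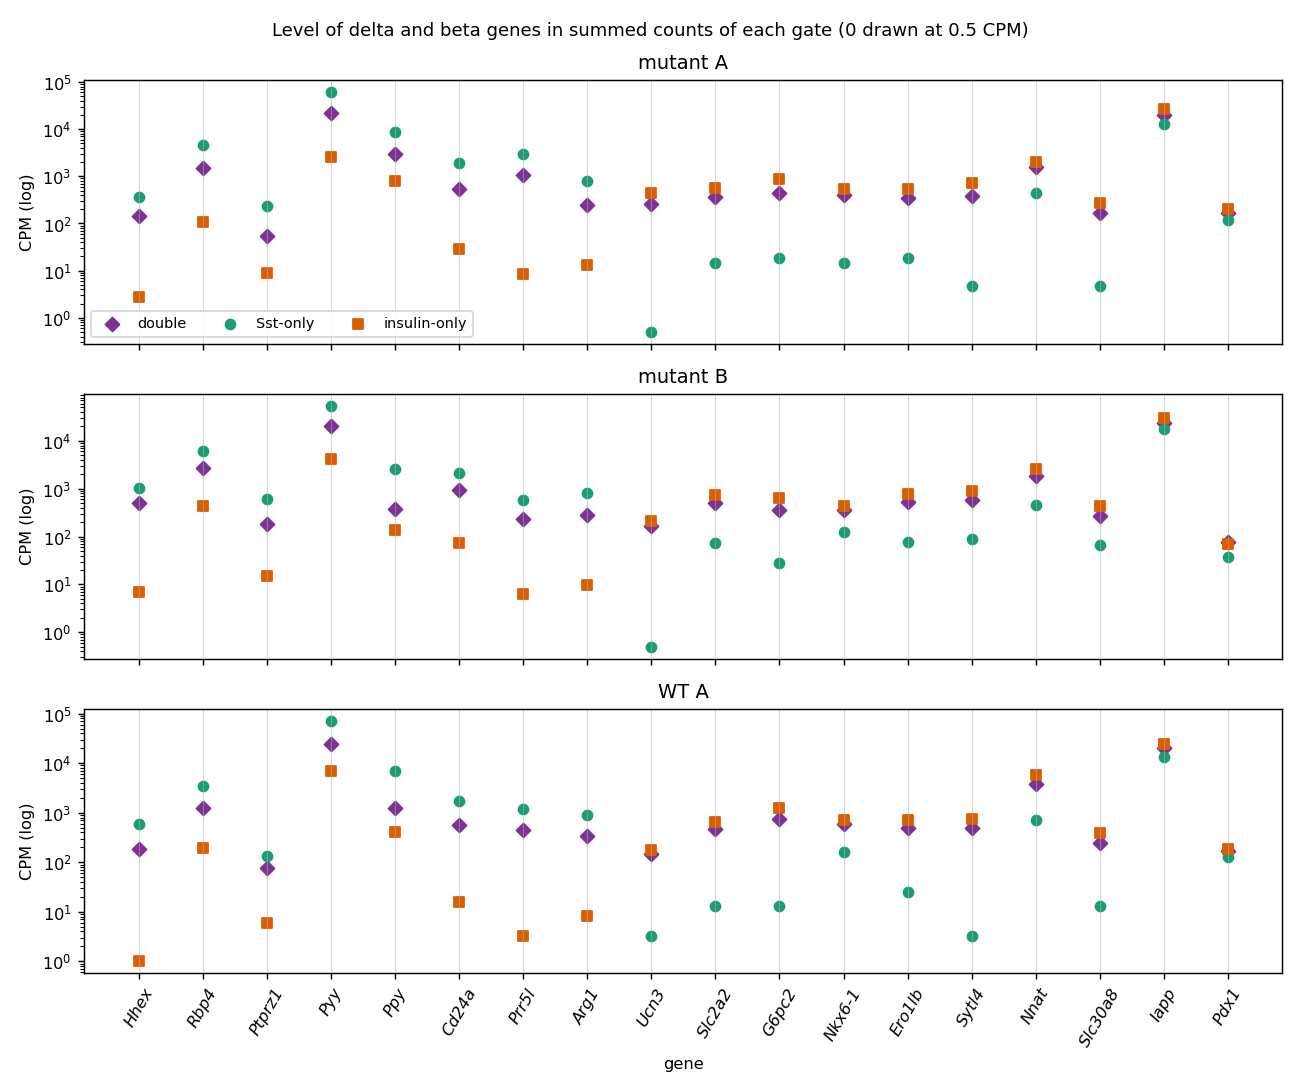
Level of 8 delta-side genes and 10 beta-side or shared genes (CPM of summed counts, log scale, 0 drawn at 0.5) in double, Sst-only and insulin-only barcodes, one panel for each of mutant A, mutant B and WT A. Double barcodes (diamonds) lie between the other gates for nearly all genes shown, at 142.8, 506 and 185 CPM for Hhex and at 358, 499 and 467 CPM for Slc2a2, with Pdx1 in mutant B above both gates.

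Counts of the beta and delta lists were detected in the same barcodes. At 2000 counts per barcode, at least 1 count of the beta list and at least 1 of the delta list, hormones left out, were seen together in 46 of 55 double barcodes (83.6%) in mutant A, 87 of 87 in mutant B and 90 of 96 (93.8%) in WT A. The same held for 20 of 30, 40 of 63, 32 of 41 and 19 of 48 Sst-only barcodes, and for 34.3%, 51.0%, 34.3% and 38.8% of insulin-only barcodes. Without thinning the double barcodes gave 83.6%, 99.0%, 95.1% and 0%. Single-gate barcodes thus also gave counts of both lists, and the part of free RNA in either was not tested. At least 1 count of the delta list was seen in 85.5%, 100% and 93.8% of double barcodes in mutant A, mutant B and WT A. Barcodes rich in glucagon only gave 86.1%, 97.8%, 95.8% and 90.9%, so 1 such count does not mark a delta program. Across members the summed beta and delta levels had a Spearman correlation of -0.153, 0.022 and -0.349 in mutant A, mutant B and WT A.

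The same order was visible across genes that separate the single gates. Genes at least 3-fold higher in insulin-only than in Sst-only barcodes in all 4 libraries, with at least 20 counts in the higher gate of each, numbered 166 of 10923 (1.52%), and 52 of 1355 (3.84%) were higher in Sst-only barcodes by that rule. The rule set no floor on the Sst-only sums, where 3 counts are 9.35 to 14.2 CPM. With that floor many beta-side genes fell under 3-fold in their lowest library, from 2.98 for Bmp1 down to 0.276 for Syt3. Without the hormones 164 beta-side and 51 delta-side genes remained. The position of double barcodes on the line from the Sst-only level (0%) to the insulin-only level (100%) had a median of 61.1%, 62.8% and 69.0% over the beta-side genes and of 70.8%, 67.3% and 68.1% over the delta-side genes in mutant A, mutant B and WT A. Double barcodes lay between the gates for 149, 148 and 150 of the 164 and for 50, 51 and 51 of the 51 genes. A beta-side gene with an Sst-only level of 0 cannot fall below 0%. Likewise a delta-side gene with an insulin-only level near 0 can hardly pass 100%. All were chosen from these same single-gate sums as at least 3-fold apart, so the numbers between the gates are partly set by the rule. In WT B, from 1765 counts, the medians were -3.26% and 108.6%, with 55 of the 164 and 2 of the 51 genes between the gates.

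Beside these positions stands the depth of the gates. The insulin-only median made up 63.3%, 63.9% and 67.6% of the sum of the insulin-only and Sst-only median counts in the same libraries. Sst itself lay at 64.0%, 64.6% and 62.1% of the way, Ins1 at 75.7%, 66.4% and 78.3% and Ins2 at 72.4%, 60.7% and 76.9%, values the gates shaped. Whether the RNA of a double barcode came from 1 cell or from more was not tested.

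**Figure D4:**
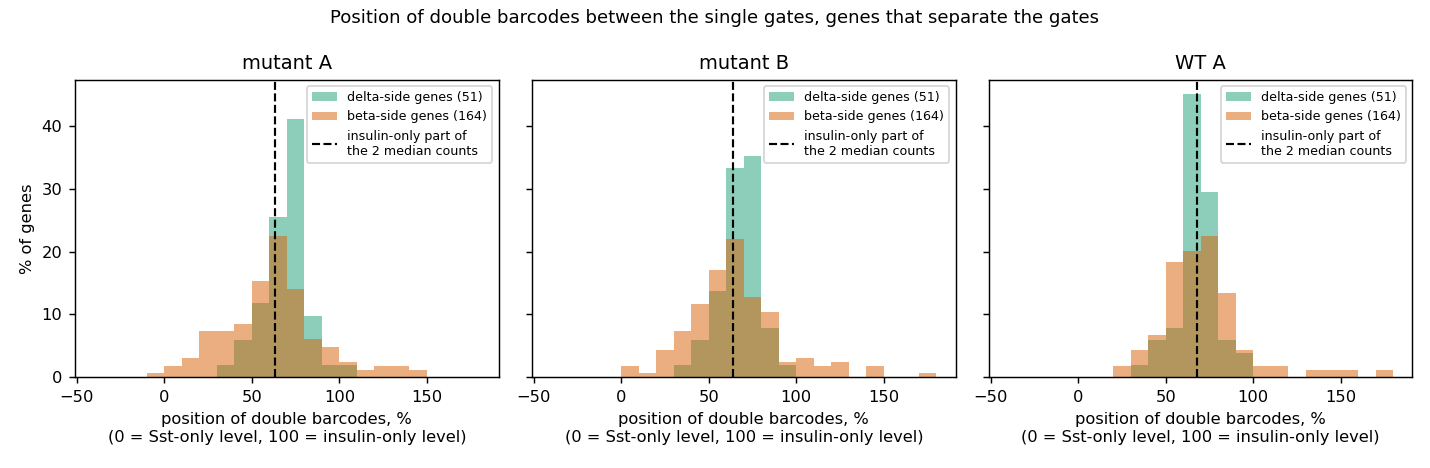
Share of genes (vertical, %) by the position of double barcodes between the Sst-only level (0) and the insulin-only level (100), for 51 delta-side and 164 beta-side genes in mutant A, mutant B and WT A. Both sets centre between 61.1% and 70.8%, and the dashed line marks the insulin-only part of the summed median counts, at 63.3%, 63.9% and 67.6%.

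The delta-side genes that separated the gates most included several outside the usual delta list. Cd24a, a small surface glycoprotein, was at 540, 927 and 567 CPM in double, 1958, 2130 and 1729 CPM in Sst-only and 28.6, 72.0 and 15.5 CPM in insulin-only barcodes. Prr5l, which binds the mTORC2 complex, was at 1047, 230 and 439 CPM in double and 3027, 570 and 1178 CPM in Sst-only barcodes. Arg1, the arginase of the urea cycle, was at 242, 277 and 332 CPM in double and 799, 800.5 and 897 CPM in Sst-only barcodes. The growth cone protein Gap43, the sodium-activated potassium channel gene Kcnt2, Lactbl1, Txlnb and Fam159b completed the 8 of that direction. Their positions ran from 35.9% for Gap43 in WT A to 77.1% for Fam159b in mutant A.

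On the beta side, Npy, neuropeptide Y, was at 267, 104 and 269 CPM in double, 0, 6.23 and 6.40 CPM in Sst-only and 739, 444 and 488 CPM in insulin-only barcodes. Its positions were 36.1%, 22.3% and 54.5%, and in mutant B it lay nearest to the Sst-only level of the 8 named genes. Bace2, an aspartyl protease of beta cells, was at 256, 508 and 442 CPM in double and 420, 829 and 785 CPM in insulin-only barcodes. Prlr, the prolactin receptor, was at 242, 90.04 and 75.7 CPM in double and 347, 180.1 and 143 CPM in insulin-only barcodes. Klk1, Tmem215, Spc25, Maob and Defb9 were the others, at positions between 31.7% and 83.4%.

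No gene with enough counts stood at least 1.5-fold outside both single gates in mutant A, mutant B and WT A alike. Of 4013 genes with enough counts, 0 (0%) were at least 1.5-fold above the higher gate in mutant A, mutant B and WT A, and of 1421 genes 0 (0%) were at least 1.5-fold below the lower gate. At 1.2-fold there were 2 above, Tbl1xr1 and Maml3, and 1 below, Zzz3, names given after their values were seen. Maml3, a Notch coactivator, was at 76.9, 97.0 and 44.4 CPM in double, 42.6, 37.4 and 12.8 CPM in Sst-only and 45.1, 64.8 and 36.8 CPM in insulin-only barcodes. At any size, 111 of the 4013 (2.77%) were above both gates in all 3 libraries and 27 of the 1421 (1.90%) below. With WT B included 6 and 1342 genes had enough counts and 0 passed in either direction.

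Other islet hormones were also present in double barcodes. Pyy, peptide YY, was at 21919, 20153 and 24762 CPM in double, 62235, 52862 and 71555 CPM in Sst-only and 2531, 4277 and 7097 CPM in insulin-only barcodes. Ppy, pancreatic polypeptide, was at 3027, 381 and 1266 CPM in double and 8864, 2623 and 7048 CPM in Sst-only barcodes. Ghrl, ghrelin, was at 61.2, 4.16 and 19.4 CPM in double, 75.7, 3.12 and 128.1 CPM in Sst-only and 1.60, 1.19 and 3.79 CPM in insulin-only barcodes. Pyy and Ppy stood between the gates in each of the 3 libraries, as the delta-side genes did, and Ghrl only in mutant A and WT A.

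Glucagon, held under 1% by the gate, was at 601, 687 and 533 CPM in double barcodes, near the 601, 586 and 541 CPM of Sst-only barcodes. Neurog3, the endocrine progenitor factor, was at 62.8, 30.5 and 45.8 CPM in double, 75.7, 143 and 118.5 CPM in Sst-only and at most 1.92 CPM in insulin-only barcodes. Sox9, a ductal and progenitor factor, was at 53.4, 37.4 and 51.4 CPM in double against 128, 122 and 144 CPM in Sst-only barcodes.

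Markers of non-endocrine cells varied by list and library. The 8 endothelial genes summed to 138, 26.3 and 24.3 CPM, against 307, 46.7 and 54.4 CPM in Sst-only barcodes, and the 9 mesenchymal genes to 254, 157 and 95.8 CPM, against 1088, 333 and 218 CPM. In insulin-only barcodes the endothelial genes were at 84.4, 33.9 and 23.8 CPM and the mesenchymal genes at 265.5, 206 and 134 CPM. The 7 ductal genes summed to 910.5, 519.5 and 868 CPM in double, 1324, 667 and 1313 CPM in Sst-only and 604, 542 and 644 CPM in insulin-only barcodes. The immune genes were above both single gates in mutant A, at 168 CPM in double against 99.3 and 85.1 CPM in Sst-only and insulin-only barcodes, and at 47.1 and 51.4 CPM in double barcodes of mutant B and WT A. The acinar genes were above both in WT A, at 98.6 CPM in double against 54.4 and 28.9 CPM, and at 51.8 and 81.7 CPM in double barcodes of mutant A and B. Hemoglobin genes summed to 755, 30.5 and 9.03 CPM in double barcodes of these libraries and to 26062 CPM in WT B, against 28.4, 1763, 12.8 and 27.6 CPM in Sst-only and 582, 703, 287 and 491 CPM in insulin-only barcodes. Their part in the results was not tested. Mitochondrially encoded counts took a median of 2.70%, 7.33%, 3.75% and 6.48% of a double barcode, between the 2.65%, 4.75%, 2.97% and 3.79% of Sst-only and the 3.37%, 9.84%, 5.32% and 6.63% of insulin-only barcodes. At 2000 counts, at least 2 counts of cell cycle genes were seen in 30.9%, 42.5% and 42.7% of double, 23.3%, 42.9% and 51.2% of Sst-only and 32.2%, 54.2% and 44.8% of insulin-only barcodes.

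The insulin and glucagon barcodes offer a second mixed gate. Their beta list stood at 64.0%, 13.5%, 57.4% and 48.4% of the insulin-only level and their alpha list at 32.0%, 49.0%, 44.9% and 65.4% of the glucagon-only level. Only 70, 4, 29 and 20 barcodes stand behind these values, with median counts of 1283.5 in mutant B and 740 in WT B. Their median counts were 0.469, 0.271, 1.11 and 0.141 times the glucagon-only median. Median counts of double barcodes were 1.799, 2.05, 2.04 and 0.119 times the Sst-only median. Barcodes with Sst and glucagon, 12, 32, 8 and 21 in number, held a median of 6504, 6930.5, 10529.5 and 8683 counts. Sst-only medians were lower in each library, at 5426.5, 3615, 6203 and 4695 counts, so a depth above Sst-only was not particular to double barcodes. These comparisons with other mixed gates are descriptions chosen after the values were seen.

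Genotype was compared within double barcodes on counts summed per library, mutant over WT. Of 7746 genes tested, 0 (0%) passed an adjusted p of 0.05 with edgeR's quasi-likelihood test and Benjamini-Hochberg adjustment, while an unadjusted p under 0.05 was reached by 32 genes higher and 8 lower in mutant. DESeq2 called 0, with 2 higher and 1 lower unadjusted. The fit rests on 2 libraries per label, one of which held 1765 counts, and a count of 0 is no sign of equal levels. Named genes nearest to the threshold in each direction are given by values.

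On the higher side, the inducible HSP70 genes Hspa1a and Hspa1b stood at 53.4 and 98.9 CPM in mutant A and at 49.9 and 234 CPM in mutant B, against 4.86 and 9.72 CPM in WT A, with 0 and 1 counts in WT B. There the 1 count of Hspa1b is 567 CPM, above its level in mutant A and B. The log2 differences of Hspa1a and Hspa1b were 3.48 ± 1.19 and 3.70 ± 1.48 (SE, edgeR, adjusted p = 0.9999 each), and as near-identical copies their counts are uncertain. In insulin-only barcodes WT B held the highest Hspa1a of all libraries, at 331 CPM, against 25.9 CPM in mutant A, 45.8 CPM in mutant B and 2.53 CPM in WT A. Srxn1, an antioxidant sulfiredoxin, was at 51.8 and 15.2 CPM in mutant A and B, against 6.25 and 0 CPM in WT A and B. Hba-a1, a hemoglobin gene, had 58 and 1 counts in mutant A and B, against 0 and 2 in WT A and B. That is 91.05 and 1.385 CPM in mutant A and B, against 0 and 1133 CPM in WT A and B.

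On the lower side, Rnase1, a secreted ribonuclease, had 4 and 1 counts in mutant A and B, against 36 and 1 in WT A and B, a log2 difference of -2.81 ± 0.89 (SE, edgeR, adjusted p = 0.9999). Tmsb15b2, a thymosin with a near-identical paralog, had 19 and 14 counts in mutant A and B, against 210 and 0 in WT A and B. Igsf11, a cell adhesion protein, had 1 and 12 counts against 51 and 0, and Mtx2, a mitochondrial outer membrane protein, 5 and 12 against 70 and 0. Hbb-bs had 137 and 14 counts in mutant A and B, against 7 and 30 in WT A and B. In 4 of these 5 the WT counts are mostly those of WT A. The sums behind these counts were 637032 and 721893 in mutant A and B, and 1440320 and 1765 in WT A and B. In WT B 1 count is 567 CPM, and the 30 counts of Hbb-bs are 16997 CPM.

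None of the lists held a called gene. The median log2 difference was 0.83 over 6 tested delta genes, 0.40 over 12 beta genes, 1.06 over 6 heat shock genes and -0.03 over 15 genes of the Sin3 complex, beside 0.20 over all genes tested. Here the delta and beta lists held 10 and 13 members, with Sst, Ins1 and Ins2 left in. Since those hormones chose the barcodes, the delta and beta medians are a description. Leaving out WT B, 3 genes were called higher by edgeR, Olfr807, Hba-a1 and Hba-a2, all carried by mutant A with 90, 58 and 278 counts, against 0, 1 and 5 in mutant B and 0, 0 and 3 in WT A. Leaving out mutant A gave 128 calls, mutant B 262 and WT A 6, so the count depends on which library is left out. In such fits the lone library of a label is assumed to vary like the others.

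Within A, where both labels had more than 60 double barcodes, ratios can be given with no test. Of 4710 genes with at least 20 counts in both sums, 327 (6.94%) were at least 2-fold higher in mutant A than in WT A and 288 (6.11%) at least 2-fold lower, around a median log2 ratio of -0.12. Over all these genes 2721 were lower in mutant A. By list, 8 of 9 mitochondrially encoded genes were lower in mutant A, with a median of -0.68, while the same list had a median of 1.08 in the 4-library fit. Heat shock genes were lower in 4 of 4, with a median of -0.29. The 1.06 of the 4-library fit covers 6 genes, a different set. Hspa1a and Hspa1b, with 7 and 14 counts in WT A, were left out within A by the limit of 20 counts. They stood higher in mutant A, at 53.4 and 98.9 CPM, against 4.86 and 9.72 CPM in WT A. Endoplasmic reticulum stress genes had a median of -0.52, with 7 of 10 lower, and Sin3 complex genes one of -0.53, with 9 of 12 lower. Delta genes, 4 in number, had a median of -0.04. In insulin-only barcodes the mitochondrially encoded list was also lower in mutant A than in WT A, with sums of 28709 and 47655 CPM. So were the endoplasmic reticulum stress list, at 6167.5 and 10513 CPM, and the Sin3 complex list, at 1002.5 and 1464 CPM. These shifts were thus not particular to double barcodes.

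Single genes within A followed their own course. Ppy was at 3027 CPM in mutant A and 1266 CPM in WT A, a log2 ratio of 1.26, and Ghrl at 61.2 and 19.4 CPM, a log2 ratio of 1.66. Nnat, neuronatin, was at 1571 CPM in mutant A and 3879 CPM in WT A, a log2 ratio of -1.304. Pyy, Iapp and Chga, the granule protein chromogranin A, had log2 ratios of -0.18, -0.04 and -0.02. The choice of these 6 was made with their values known, and with 1 library per label there is no replicate check.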

How the data were processed

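Whole-number counts per gene and barcode were used as the authors deposited them, for 4 inDrop libraries, which the labels' protocols describe as CEL-Seq amplified and read on a NextSeq500. GRCh38 and GRCm38 are the builds listed in the submitters' processing notes. The aligner, annotation, counting program and barcode rule were not given in the sources used here. Of 38459 features 2 not marked as mouse, with at most 2 counts per library, were left out. Members and gene lists were chosen with earlier results of these data known. Genes were named by rule: the gate genes and Sin3a, list members, the 8 genes per direction that separate the single gates most, genes beyond both gates, and the 5 with smallest p per direction in the genotype comparison, predicted genes passed over. A few genes the rule took are not reported here, with no replacement.

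Counts were summed per library and gate, and CPM scales that sum to 1000000. Per-barcode comparisons used thinning to 2000 counts. Shares carry exact (Clopper-Pearson) 95% intervals. Single values were tested over libraries by exact permutation or sign flips. Genotype was tested with edgeR 4.0.16 (TMM, filterByExpr, quasi-likelihood) in R 4.3.3, with DESeq2 1.42.0 as an alternative, and the test was tried on simulated data. Scrublet (scanpy 1.11.5) called 47 of 6566 barcodes (0.716%), 6 of them members (1, 1, 4 and 0), and none were removed. Replicates are separate libraries, called biological replicates, and p-values measure the spread between them. Tried alternatives were other gates, filters, depths, scalings, left-out libraries and a replicate block.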

Additional observations from a re-analysis of the deposited data

Results flagged for a closer look

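The share of Sst-rich barcodes that were double differed between labels in opposite directions in A and B. Mutant minus WT was -9.24 percentage points within A and 51.89 percentage points within B. The difference between A and B was not tested, since each holds 1 library per label, and the value within B rests on the 3 double barcodes of WT B.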

How the results depend on the processing

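Over the comparisons of gates and genotype, 70 recomputed values kept their direction and call, 16 changed sign, 7 gained calls and 2 moved by more than the spread. With gates at 2% of counts the mean log2 ratio of median counts became 0.9952 to Sst-only and 0.1106 to insulin-only barcodes, with at least 1000 counts and 500 genes 0.9461 and 0.1034, and over the 3 libraries with at least 20 double barcodes, an alternative added after seeing the data, 0.9723 and 0.08198. Those settings leave WT B without double barcodes. Gates at 5% gave -4.44 points for the share, 0.851 for counts against Sst-only, -47.67 and -12.83 genes at fixed depth against Sst-only and insulin-only, and 61.02% and 48.36% for the beta and delta lists, from 2 libraries for the lists and with 1 double barcode in mutant B for the genes. The cause was not tested. Without thinning, double minus insulin-only was -406.1 genes, with WT B included. Genotype calls were 3 with gates at 2% and 3 with at least 1000 counts. With the title number as a replicate block they were 12 (11 higher, 1 lower). The A minus B differences of the mutant and WT sums correlated at r = -0.00357 over 7746 genes, a value that rests on the 1765 counts of WT B and says little about pairing, and the labels do not say that the numbers pair libraries.

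Leaving out each library in turn gave -12.62 to 55.26 points for the share, -0.399 to 0.9723 and -1.143 to 0.08198 for counts against Sst-only and insulin-only, -10.5 to 42.75 genes against Sst-only, and 3 to 262 genotype calls. Log2 differences then ran from -1.811 to 8.539 for Hba-a1 (DESeq2 gave -0.5227), from -6.22 to 4.678 for Hbb-bs, from -2.439 to 5.504 for Mtx2 and from -2.697 to 6.535 for Tmsb15b2. The double barcodes of WT B number 3 and hold 1765 counts in all, none with 2000.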
